A study of Mus musculus with 6 samples.

Results

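The transcriptome of N18-Fms cells stimulated with CSF-1 for 24 h was compared with that of unstimulated N18-Fms cells, over 4 of the 6 single-color Agilent mouse arrays of the series, 2 in each group. The arrays of each group were taken by their titles, but the comparison and the gene lists were chosen with earlier results of these data known. N18 is a luciferase-transfected subclone of C2H, a clonal line from a prostate tumor of the TRAMP mouse, and N18-Fms cells carry in addition a murine c-fms cDNA, introduced with a retrovirus vector and enriched by 2 rounds of sorting for surface receptor. Unstimulated cells were labelled as given vehicle in one field and as untreated in another, and stimulated cells received recombinant murine CSF-1 at 100 ng/mL. The labels give 24 h and 48 h as the times of stimulation, whereas the methods text gives shorter times, and the labelled times were used. Both groups share the same clone, the same transgenes and the same culture medium, which contained serum and dihydrotestosterone. The paper marks the unstimulated cells as 0 h, and its methods do not state when they were harvested. Added CSF-1 therefore cannot be told apart from a difference in time in culture. These cells also secrete CSF-1, so the comparison is one of added CSF-1 against endogenous CSF-1. Replicates came from 2 independent experiments per the methods, but the labels do not say how cultures were paired.

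CSF-1 is the main growth factor of the macrophage lineage. Its receptor, CSF-1R, is a tyrosine kinase that is also bound by IL-34, and its autophosphorylation recruits adaptors, SRC family kinases, PI 3-kinase and the RAS-ERK cascade. ERK activity induces immediate early transcription factors, which in turn act on genes for growth factors and proteases, and it is limited by phosphatases of the DUSP family and by Sprouty and Spred proteins that are themselves ERK targets. In macrophages this receptor governs survival, proliferation, spreading and motility. The paper states that trophoblast epithelium of the placenta also expresses it, whereas the normal mouse prostate does so only early in development.

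Levels are given throughout as log2 of the deposited signal after subtracting each array's own 75th percentile, which is thereby 0, and they can be compared between arrays for a probe but not between probes. The brightest probe stood for each gene, and 24232 genes were tested because both arrays of at least 1 group measured them well above background, by a fit with limma on all 6 arrays. Adjusted p is the Benjamini-Hochberg adjusted p-value over these genes, an error after ± is the standard error of the log2 change, and a pair of values in parentheses gives the log2 change and its adjusted p. A gene is called upregulated or downregulated at an adjusted p-value under 0.05 with a change of at least 2-fold. Where a group had an array on which the gene was not well above background, signals of that group under the lowest signal well above background on the array were set to it, and the resulting fold is written as at least. Such a limit holds for the background subtraction used here only, and folds near background could be smaller after another one, normexp. A further check left out each of the 4 arrays in turn, and a gene is described without a remark where it was called in all 4 of these fits. With 2 arrays against 2, an exact 2-sided permutation test of a single gene cannot give a p-value below 0.333.

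Between 59.7% and 72.0% of the 59305 spots other than controls were well above background on the 4 arrays, and 0 spots were saturated. The highest share belonged to the first 24 h array, which lay alone on a slide while the other 5 arrays of the series shared another, so that the result for each list is also given without it where it matters. The log2 difference between replicates had an SD of 0.38 for unstimulated cells and 0.353 for cells at 24 h. Of 8 epithelial markers, 4 (Krt8, Krt19, Cldn7 and Esrp1) were well above background on both unstimulated arrays, and Epcam, Cdh1 and Ovol1 on 0 of the 4 arrays. Of 10 fibroblast and mesenchymal markers, 8 were well above background on all 4 arrays, among them Vim, Col1a1, Col1a2 and Pdgfrb. Of 14 myeloid markers, 7 exceeded background well on both unstimulated arrays and 7 on both 24 h arrays, among them Csf1r, which was introduced into these cells, while Spi1 (listed as Sfpi1) and Lyz2 were on 0 arrays. Of 8 lymphocyte markers, 5 were also well above background on all 4 arrays, among them Cd3e, Cd4 and Nkg7, and so were 2 of 4 adipocyte markers. A signal well above background therefore does not by itself name a cell type in this clonal line.

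The receptor and its ligands were examined first. Csf1r, the receptor gene, whose probe may read the introduced cDNA, the endogenous transcript or both, had levels of 4.88 and 5.13 on the unstimulated arrays and 5.12 and 5.34 on the 24 h arrays, a log2 change of 0.22 ± 0.15 (adjusted p = 0.361) that turned to -0.06 under median centring of the arrays. Csf1, the ligand gene, had levels of 4.08 and 4.28 on the unstimulated arrays and 3.48 and 4.16 on the 24 h arrays (-0.36 ± 0.29, 0.469). The arrays of the 2 groups overlapped for both genes, and neither difference passed the test. Il34, which encodes the other ligand, had levels of 0.25 and 0.21 on the unstimulated arrays and 2.01 and 1.88 on the 24 h arrays, a log2 change of 1.71 ± 0.11 (0.00205), and rose 3.28-fold with no overlap. Of 42 genes of the receptor's proximal signalling that were tested, out of 50 on the array, 4 were upregulated and 0 downregulated, and 38 did not pass, where 4.65% of all genes tested were upregulated and 1.67% downregulated. Besides Il34 these were Map2k1, which encodes the ERK kinase MEK1 (1.09 ± 0.19, 0.0223), Fes, a cytoplasmic tyrosine kinase of myeloid cells (1.28 ± 0.16, 0.00916), and Ptpn6, the phosphatase SHP-1 (1.27 ± 0.23, 0.0251). Map2k1 was called only without the first 24 h array among the 4 arrays left out (adjusted p from 0.0734 to 0.108 otherwise). Fes was not called without the first unstimulated or the second unstimulated array (adjusted p from 0.0508 to 0.0521), and its other probe gave 0.84 (0.0752). Ptpn6 was called in 0 of the 4 fits with an array left out (adjusted p from 0.0557 to 0.104). The median log2 change of this list was -0.03, against 0.03 over all genes tested, and its 4 calls became 1 without either unstimulated array and 2 without the second 24 h array.

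Across all genes tested, 1532 differed between the groups (6.32%), 1127 upregulated (4.65%) and 405 downregulated (1.67%), and in each of them both 24 h arrays lay beyond both unstimulated arrays. Genes of the interferon response and antigen presentation, which are not described further here, made up 82 of the upregulated and 0 of the downregulated genes, so that 1045 of the upregulated genes lay outside that list. Signal over background limits part of the result, since 439 of the upregulated genes were not well above background on both unstimulated arrays, and a gene of that kind could enter only through its 24 h arrays. Among the 21838 genes well above background on all 4 arrays, 688 were upregulated and 351 downregulated. Over all 1532 called genes, interferon genes included, 158 upregulated but 14 downregulated genes changed 8-fold or more by measured value or limit. Both counts include genes that could enter only through the group where they were high, so the filter shapes them. Without the first 24 h array 777 genes were upregulated and 372 downregulated, without the second 688 and 295, without the first unstimulated array 901 and 347, and without the second 775 and 257. The direction of the whole depends on the scaling. Median centring lowered the log2 change of every gene by 0.284 and gave 783 upregulated and 966 downregulated genes, and quantile normalization gave 809 and 482. List medians are therefore set beside the median of all genes, which moves with them. In a bulk RNA sample, a change in the cells that express a gene and a change of RNA per cell cannot be told apart.

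**Figure D1:**
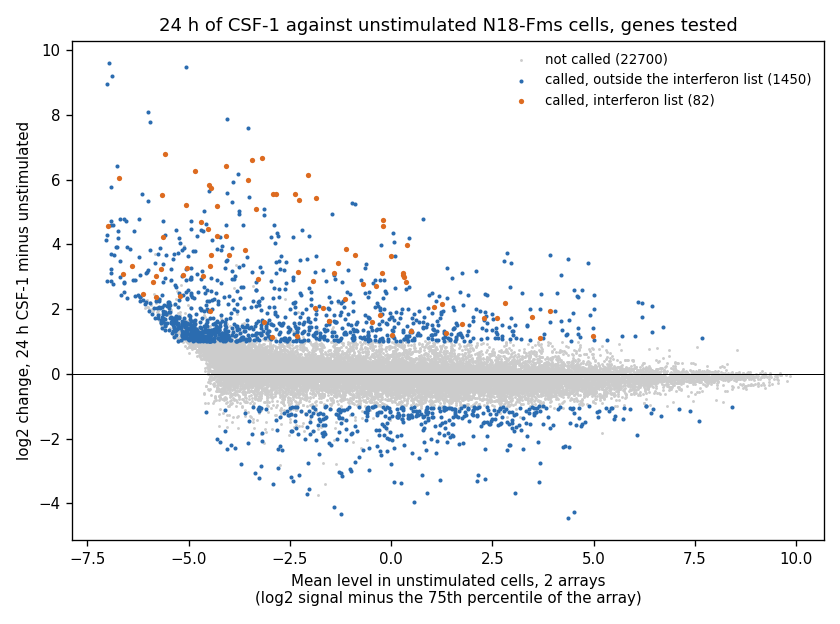
Each point is a gene tested, placed by its mean level on the 2 unstimulated arrays (x axis, log2 signal relative to the array's 75th percentile) and its log2 change at 24 h (y axis). The 82 called genes of the interferon list (orange) lie among the 1450 other called genes (blue), and the upregulated genes reach further from 0 than the downregulated ones, chiefly at low levels in unstimulated cells. Genes not well above background in unstimulated cells were tested only through their 24 h arrays, and the change subtracts the unstimulated level. The filter and the axes therefore shape this pattern.

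Among genes with a RefSeq symbol, the largest increases outside the interferon list were led by inhibitors of proteases. Gm5483 and BC100530, now named Cstdc4 and Cstdc5, and Stfa2l1 are stefin A relatives on chromosome 16 that inhibit cysteine proteases, and Slpi on chromosome 2 encodes a secreted inhibitor of leukocyte serine proteases. Slpi had levels of -3.65 and -3.43 on the unstimulated arrays and 3.68 and 4.41 on the 24 h arrays, a log2 change of 7.59 ± 0.39 (adjusted p = 0.00115), or 193-fold. BC100530 had levels of -4.16 and -3.95 on the unstimulated arrays and 3.58 and 4.08 on the 24 h arrays (7.89 ± 0.24, 0.000621), a 237-fold increase. Gm5483 was well above background on 1 of the 2 unstimulated arrays and on both 24 h arrays, at 4.15 and 4.70, and rose at least 517-fold (0.00115). Stfa2l1 was not well above background in unstimulated cells and rose at least 149-fold (0.00115), to 1.81 and 2.35. These stefin A genes are near-identical copies, and their probes may share signal. The other genes of the leading 8 were Colec10 on chromosome 15, a secreted lectin of the collectin family, which went from not well above background to 2.98 and 2.28 (at least 223-fold, 0.000621), Gm4847 on chromosome 1 (at least 180-fold, to 1.95 and 2.68, 0.000621), and Slitrk6 on chromosome 14, a neuronal transmembrane protein (at least 109-fold, to 1.84 and 1.80, 0.00202). Sema7a on chromosome 9, a membrane-anchored semaphorin that binds integrins, had levels of -4.32 and -3.27 on the unstimulated arrays and 1.99 and 2.81 on the 24 h arrays (6.19 ± 0.42, 0.00225). Each of these 8 genes had a gap between its groups several times wider than the distance between its replicates.

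Downregulated genes with a RefSeq symbol were led by a pair of aldehyde dehydrogenases on chromosome 19. Aldh1a7 had levels of 4.27 and 4.47 on the unstimulated arrays and -0.43 and 0.29 on the 24 h arrays, a log2 change of -4.44 ± 0.26 (0.00144). Aldh1a1, which oxidizes retinaldehyde to retinoic acid, had levels of 4.20 and 4.85 on the unstimulated arrays and 0.01 and 0.53 on the 24 h arrays (-4.25 ± 0.30, 0.00229). The 2 genes are close paralogs, so their probes may share signal. Ogn and Omd, small leucine-rich proteoglycans of the matrix that lie on chromosome 13, followed, with levels of 0.38 and 0.73 on the unstimulated arrays and -3.94 and -2.88 on the 24 h arrays for Ogn (-3.96 ± 0.39, 0.00509) and a log2 change of -3.35 ± 0.14 for Omd (0.00104). Timp3 on chromosome 10, a matrix-bound inhibitor of metalloproteinases, had levels of 3.10 and 3.01 on the unstimulated arrays and -0.57 and -0.68 on the 24 h arrays (-3.69 ± 0.41, 0.00686). Cdh3 on chromosome 8, which encodes P-cadherin of basal epithelial cells, had levels of 0.99 and 0.77 on the unstimulated arrays and -2.55 and -3.01 on the 24 h arrays (-3.67 ± 0.34, 0.00454). Hrct1 on chromosome 4 (-3.37 ± 0.34, 0.00526) and Prss23 on chromosome 7, a secreted serine protease (-3.33 ± 0.14, 0.00104), completed the leading 8. All 8 were well above background on all 4 arrays, so these folds, from 10.1 to 21.7, are measured values rather than limits. They still depend on the background subtraction. Normexp correction with the same scaling gave log2 changes of -2.68 for Ogn, -2.34 for Omd, -2.36 for Hrct1 and -2.85 for Cdh3. It gave -4.28 for Aldh1a7, -4.14 for Aldh1a1, -3.48 for Timp3 and -3.20 for Prss23.

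**Figure D2:**
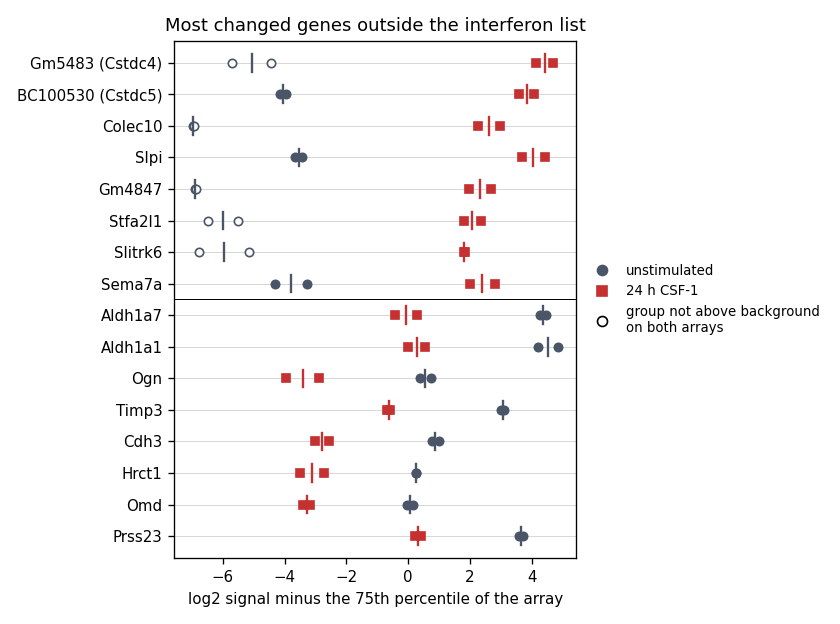
Levels on each array (x axis, log2 signal relative to the array's 75th percentile) of the 8 most upregulated (top) and 8 most downregulated (bottom) genes with a RefSeq symbol outside the interferon list, with gray circles for the 2 unstimulated arrays, red squares for the 2 arrays at 24 h, vertical bars for their means and open symbols for a group not well above background on both arrays. In each gene the 4 points form separate pairs, as the rule that named these genes required. Of the 8 upregulated genes, 5 have open symbols in unstimulated cells.

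Outside the interferon list, 30 further lists of genes grouped by function held 100 upregulated and 63 downregulated genes. The counts of each list, here and below, stand against 4.65% upregulated and 1.67% downregulated over all genes tested. Upregulated genes were most numerous among matrix proteases and their inhibitors (10 of 30 tested), ERK feedback genes (9 of 27), cytokines and chemokines (9 of 29) and growth factors other than EGFR ligands (8 of 36). Downregulated genes were most numerous among elastic fibre, proteoglycan and matricellular genes (15 of 44) and actin cytoskeleton and contractile genes (8 of 48). Of 68 cytosolic ribosomal protein genes, 67 oxidative phosphorylation genes and 43 mitosis genes, 0 were called. Shares of upregulated genes in the TGF-beta and BMP, WNT and Notch, guidance, keratin, cell cycle regulator, cholesterol, stress response, glutathione and lysosome lists, of 1 to 3 genes each, were close to the 4.65% of all genes tested.

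**Figure D3:**
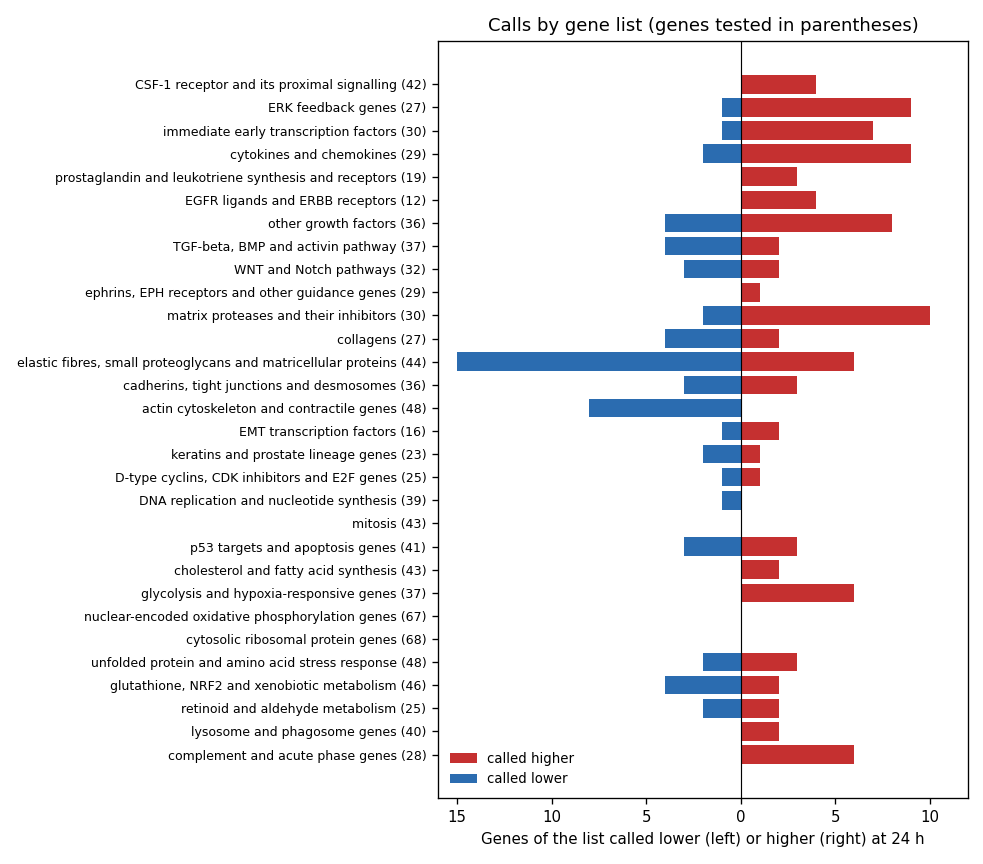
Number of genes of each list called upregulated (red, to the right) or downregulated (blue, to the left) at 24 h, with the number tested in parentheses after the name of the list. Bars to the right are longest for matrix proteases (10), and bars to the left for elastic fibres, small proteoglycans and matricellular proteins (15).

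Of 27 ERK feedback genes tested, 9 rose, 1 fell and 17 did not pass, so that 37.0% were called, against 6.32% of all genes tested. The median log2 change was 0.58 against 0.03 over all genes, and 8 or 9 rose with any of the 4 arrays left out. Dusp6, a cytoplasmic phosphatase of ERK, had levels of 4.24 and 3.84 on the unstimulated arrays and 6.01 and 5.97 on the 24 h arrays (1.95 ± 0.16, 0.00317). Ier3, an ERK substrate and early response gene, had levels of 1.45 and 1.56 on the unstimulated arrays and 4.26 and 4.68 on the 24 h arrays (2.96 ± 0.21, 0.00231). Its 24 h arrays lay far above the unstimulated ones, as did those of the nuclear ERK phosphatase Dusp5 (-1.50 and -1.47 on the unstimulated arrays and 0.58 and 0.87 on the 24 h arrays; 2.21 ± 0.13, 0.00163). Spry4, a Sprouty inhibitor of RAS-ERK signalling, rose by 2.41 ± 0.26 (0.00628), and Spred3 rose at least 5.36-fold from a level not well above background (0.00141). Spred1 (1.56), Errfi1, an inhibitor of the EGF receptor (1.88), the ETS factor Etv1 (1.25) and Dusp14 (1.02) were the other members that rose. Of these Etv1 was not called without the first unstimulated or the first 24 h array (adjusted p from 0.0627 to 0.0685), and Dusp14 was not called without the second unstimulated or the second 24 h array (adjusted p from 0.0589 to 0.0618). Spry1 went the other way, with levels of -1.72 and -2.13 on the unstimulated arrays and -3.76 and -3.61 on the 24 h arrays (-1.76 ± 0.20, 0.00750).

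Of 30 immediate early transcription factors tested, 7 were upregulated, 1 was downregulated and 22 did not pass, with a median of 0.51. Fos, a subunit of AP-1, had levels of -3.77 and -4.08 on the unstimulated arrays and -1.30 and -0.68 on the 24 h arrays (2.94 ± 0.33, 0.00721), and Junb, another subunit, had levels of -1.91 and -2.03 on the unstimulated arrays and 0.27 and 0.42 on the 24 h arrays (2.32 ± 0.19, 0.00339). The groups of both genes were separated by more than 2 log2 units. Zfp36, which promotes decay of cytokine mRNA, rose at least 5.57-fold (0.00218), and Egr2 rose by 2.0 ± 0.15 (0.00263). Egr1 had levels of -0.49 and -1.54 on the unstimulated arrays and 1.56 and 1.33 on the 24 h arrays (2.46 ± 0.36, 0.0140) and was not called without the first 24 h or the second 24 h array (adjusted p from 0.0588 to 0.0695). Klf2 fell, with levels of 0.49 and 0.54 on the unstimulated arrays and -0.73 and -0.90 on the 24 h arrays (-1.33 ± 0.15, 0.00749). The count of 7 was 5 without the first 24 h array, 4 without the second and 4 after normexp background correction. The arrays do not show the course of these genes within the 24 h.

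Of 12 genes for EGF receptor ligands and ERBB receptors tested, out of 15 on the array, 4 rose, 0 fell and 8 did not pass, with a median of 0.91. Hbegf, heparin-binding EGF, had levels of 2.45 and 2.22 on the unstimulated arrays and 4.07 and 4.20 on the 24 h arrays (1.80 ± 0.13, 0.00257). Ereg, epiregulin, had levels of 1.19 and 1.35 on the unstimulated arrays and 2.95 and 3.51 on the 24 h arrays (1.96 ± 0.21, 0.00621). The 24 h levels of both exceeded every unstimulated level by more than 1.5 log2 units. Btc, betacellulin, was well above background on 1 unstimulated array and reached -0.12 and -0.35 at 24 h, at least 21.2-fold (0.000771). Areg, amphiregulin, had levels of -3.82 and -4.39 on the unstimulated arrays and -0.29 and -1.4 on the 24 h arrays (3.26 ± 0.42, 0.00992) and was not called without the second unstimulated array (adjusted p = 0.0620). The receptor gene Egfr had levels of -2.75 and -1.83 on the unstimulated arrays and -0.89 and 0.14 on the 24 h arrays, and its log2 change of 1.91 ± 0.68 did not pass (0.121).

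Among 36 other growth factor and growth factor binding genes, 8 rose, 4 fell and 24 did not pass. Angptl4, an inhibitor of lipoprotein lipase, had levels of 3.53 and 4.32 on the unstimulated arrays and 7.39 and 7.84 on the 24 h arrays (3.69 ± 0.30, 0.00312), and Vegfa, the main angiogenic factor, had levels of 1.15 and 1.23 on the unstimulated arrays and 3.26 and 3.90 on the 24 h arrays (2.39 ± 0.23, 0.00492). Figf, now named Vegfd and encoding a lymphangiogenic factor of the same family, had levels of 2.15 and 2.14 on the unstimulated arrays and -0.89 and -1.09 on the 24 h arrays (-3.13 ± 0.12, 0.000801). These VEGF genes thus moved in opposite directions, with no overlap of groups in either. Fst, the activin antagonist follistatin, was well above background on 1 unstimulated array and rose at least 14.7-fold (0.00821), to 0.09 and -0.21. Hgf, the ligand of MET, was not well above background in unstimulated cells and rose at least 2.18-fold (0.00115). Fgf1 rose at least 16.8-fold by its brightest probe (0.00141), but another probe of Fgf1 gave a log2 change of 0.30 (0.782), so the 2 probes disagree. The stromal factor Pdgfc fell by 1.27 (0.00573).

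Of 29 cytokine and chemokine genes tested, out of 54 on the array, 9 rose, 2 fell and 18 did not pass, with a median of 0.59 that was 0.14 after normexp correction with quantile normalization. Il33, a nuclear cytokine released from damaged cells, had levels of 0.52 and 1.05 on the unstimulated arrays and 5.48 and 5.68 on the 24 h arrays (4.80 ± 0.25, 0.00115), a 27.8-fold increase. Il6 was well above background on 1 unstimulated array and reached -0.71 and -0.47 (at least 22.7-fold, 0.00526), and Ccl12, a monocyte chemoattractant, rose at least 14.6-fold (0.00188). The neutrophil chemoattractant Cxcl1 had levels of -2.60 and -2.19 on the unstimulated arrays and -0.43 and 0.00 on the 24 h arrays (2.18 ± 0.23, 0.00631). Cxcl12, the ligand of CXCR4, fell, with levels of 3.63 and 3.74 on the unstimulated arrays and 0.39 and 1.45 on the 24 h arrays (-2.76 ± 0.37, 0.0107), and was not called without the first unstimulated or the second unstimulated array (adjusted p from 0.0562 to 0.0675). Ccl9 fell by 1.69 (0.00360).

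Of 19 prostaglandin and leukotriene genes, 3 rose and 0 fell, but 1 rose without either unstimulated array or the second 24 h array. Ptgs2, the inducible cyclooxygenase, had levels of 1.25 and 1.49 on the unstimulated arrays and 3.04 and 4.38 on the 24 h arrays (2.34 ± 0.48, 0.0337), with the wider gap between replicates at 24 h, and was called only without the first 24 h array among the 4 arrays left out (adjusted p from 0.0764 to 0.130 otherwise). Akr1c18, an aldo-keto reductase of progesterone and prostaglandin metabolism, rose by 2.26 ± 0.17 (0.00255), and the prostaglandin transporter Slco2a1 by 1.59 ± 0.36 (0.0422), which was called in 0 of the 4 fits with an array left out (adjusted p from 0.0699 to 0.152). Among 28 complement and acute phase genes 6 rose, 0 fell and 22 did not pass, and the count was 2 without the first unstimulated array and 3 without the second 24 h array. Lcn2, an iron-binding acute phase protein, had levels of -0.12 and -0.35 on the unstimulated arrays and 1.39 and 1.83 on the 24 h arrays (1.84 ± 0.18, 0.00525). Saa2 rose at least 9.38-fold (0.0106) and was not called without the first unstimulated array (adjusted p = 0.0576), and Saa3 rose by 2.19 ± 0.52 (0.0470) and was called in 0 of the 4 fits with an array left out (adjusted p from 0.0650 to 0.164). The serum amyloid A genes are similar copies whose probes may share signal. Of 40 lysosome and phagosome genes 2 rose, close to the 4.65% of all genes tested (1 without the second 24 h array), namely Mitf, a transcription factor of lysosomal genes (-1.50 and -1.30 on the unstimulated arrays and 0.23 and 0.23 on the 24 h arrays; 1.63 ± 0.12, 0.00277), and Acp5, the tartrate-resistant phosphatase of osteoclasts (2.62 ± 0.31, 0.00836). Acp5 was not called without the second 24 h array (adjusted p = 0.0503). Lysosomal genes as a group had a median of 0.34, and 32 of 40 were higher, against 13071 of 24232 genes tested.

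Proteases that cut proteins of the extracellular matrix degrade and remodel it. Of 30 protease and inhibitor genes tested, out of 42 on the array, 10 rose, 2 fell and 18 did not pass, with a median of 0.52, and 7 to 9 rose with single arrays left out. Plau, which encodes urokinase, had levels of -0.35 and 0.00 on the unstimulated arrays and 2.25 and 3.18 on the 24 h arrays (2.89 ± 0.32, 0.00685), and its receptor gene Plaur had levels of 3.57 and 3.80 on the unstimulated arrays and 5.40 and 5.95 on the 24 h arrays (1.99 ± 0.25, 0.00895). Plaur was not called without the first unstimulated array (adjusted p = 0.0523). Serpinb2, an inhibitor of plasminogen activators, had levels of 0.04 and 0.06 on the unstimulated arrays and 3.70 and 5.09 on the 24 h arrays (4.34 ± 0.52, 0.00836) and was not called without the second unstimulated array (adjusted p = 0.0539). Mmp10, stromelysin 2, had levels of -3.99 and -3.05 on the unstimulated arrays and 1.19 and 2.69 on the 24 h arrays (5.46 ± 0.67, 0.00881), a 43.9-fold increase. Adamts4, an aggrecanase, had levels of -2.27 and -1.81 on the unstimulated arrays and 2.14 and 2.32 on the 24 h arrays (4.27 ± 0.23, 0.00115), and its other probe gave 4.72. Mmp13, collagenase 3, was well above background on 1 unstimulated array, with levels of -4.74 and -3.36 on the unstimulated arrays and -1.12 and 0.06 on the 24 h arrays (3.52 ± 0.67, 0.0273), and was called in 0 of the 4 fits with an array left out (adjusted p from 0.0563 to 0.104). The inhibitor genes moved apart. Timp1 had levels of 6.07 and 6.10 on the unstimulated arrays and 7.97 and 8.66 on the 24 h arrays (2.23 ± 0.29, 0.00976), whereas Timp3 fell as given above, and the aggrecanase gene Adamts5 fell by 1.36 (0.00905) but was not called without the first unstimulated array (adjusted p = 0.0515). Timp1 was not called without the first unstimulated or the second unstimulated array (adjusted p from 0.0548 to 0.0603).

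**Figure D4:**
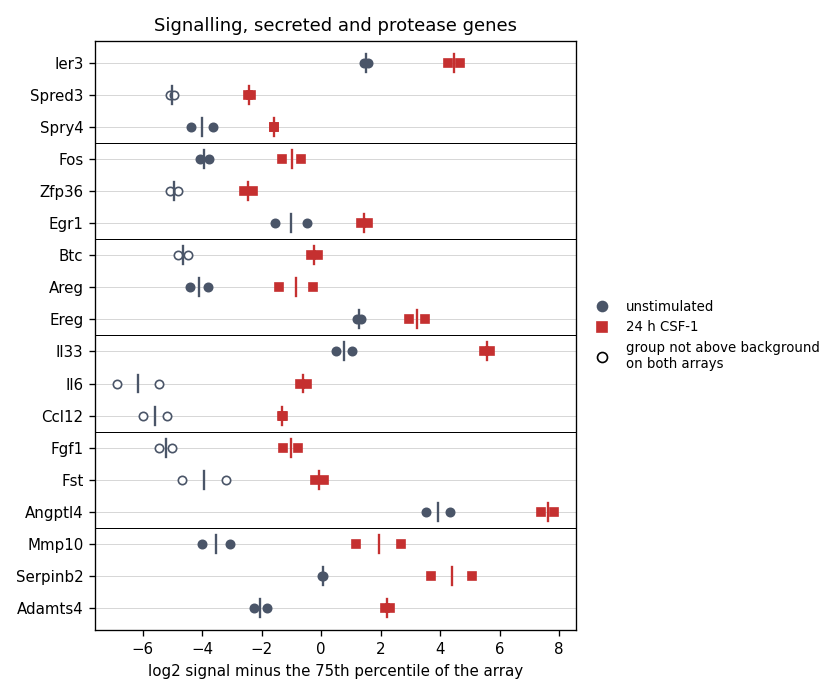
Levels on each array (x axis, log2 signal relative to the array's 75th percentile) of up to 3 called genes with the largest change from each of 6 lists, divided by lines: ERK feedback genes, immediate early factors, EGFR ligands, cytokines, other growth factors and matrix proteases. All 18 genes have both 24 h arrays (red squares) above both unstimulated arrays (gray circles). A lack of overlap was required by the rule that named these genes, and their direction was not. Open symbols mark a group not well above background on both arrays.

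Promoter sequences are shown for protease genes because the AP-1 subunits Fos and Junb rose in the same arrays and AP-1 binds the letters TGANTCA, which read the same on both strands. RefSeq windows of 300 bases on build GRCm38.p6, from 250 bases before a gene's start to 50 after it, were searched for these letters. In the windows of Mmp10 (chr9:7502092-7502391), Mmp13 (chr9:7272264-7272563), Serpinb2 (chr1:107511173-107511472) and Plaur (chr7:24462233-24462532), and in that of the downregulated gene Aldh1a1 (chr19:20492333-20492632), all on the plus strand, the match is in capitals. Serpinb2 and Aldh1a1 each have 2 windows, of which the one listed first is printed. These genes were chosen after their values were seen.
Mmp10: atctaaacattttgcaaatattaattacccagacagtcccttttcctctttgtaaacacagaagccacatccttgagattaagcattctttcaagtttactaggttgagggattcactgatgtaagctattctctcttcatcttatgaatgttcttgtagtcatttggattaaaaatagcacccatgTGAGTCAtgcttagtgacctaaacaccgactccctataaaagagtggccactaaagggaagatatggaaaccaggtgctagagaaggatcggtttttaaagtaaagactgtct
Mmp13: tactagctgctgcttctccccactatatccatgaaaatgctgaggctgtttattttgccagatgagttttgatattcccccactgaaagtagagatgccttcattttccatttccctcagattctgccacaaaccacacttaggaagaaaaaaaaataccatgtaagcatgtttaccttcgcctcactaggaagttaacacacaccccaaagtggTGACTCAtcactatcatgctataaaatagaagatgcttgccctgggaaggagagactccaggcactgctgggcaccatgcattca
Serpinb2: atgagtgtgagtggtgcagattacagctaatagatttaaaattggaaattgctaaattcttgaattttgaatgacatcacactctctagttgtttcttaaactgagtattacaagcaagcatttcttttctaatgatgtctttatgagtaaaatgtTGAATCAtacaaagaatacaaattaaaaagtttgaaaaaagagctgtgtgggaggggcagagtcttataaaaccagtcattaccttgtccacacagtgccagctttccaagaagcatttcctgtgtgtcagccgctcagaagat
Plaur: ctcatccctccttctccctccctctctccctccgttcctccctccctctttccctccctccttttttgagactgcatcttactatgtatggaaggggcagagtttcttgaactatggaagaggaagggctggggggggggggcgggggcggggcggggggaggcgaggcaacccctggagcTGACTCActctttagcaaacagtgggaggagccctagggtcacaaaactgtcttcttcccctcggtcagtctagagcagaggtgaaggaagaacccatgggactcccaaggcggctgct
Aldh1a1: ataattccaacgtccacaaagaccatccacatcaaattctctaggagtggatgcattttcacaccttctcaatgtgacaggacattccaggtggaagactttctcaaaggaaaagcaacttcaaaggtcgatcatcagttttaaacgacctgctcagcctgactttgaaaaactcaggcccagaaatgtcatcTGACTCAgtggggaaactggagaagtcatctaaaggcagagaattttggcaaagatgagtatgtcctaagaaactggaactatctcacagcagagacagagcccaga

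The match begins 63 bases before the start of Mmp10, 35 before that of Mmp13, 94 before that of Serpinb2, 69 before that of Plaur and 57 before that of Aldh1a1. Of the 10 upregulated genes of the protease list 7 had a window, and 5 of these held the letters, the fifth being Adam19. Over the whole protease list, called or not, 8 of 22 genes with a window held them (36.4%). These include Mmp3, Mmp12 and Spock1, which were not called. Over all genes with a window, 8.97% held them in at least 1 window, and over the genes tested 7.09%. The share was 14.7% of the 545 genes with a window that were upregulated outside the interferon list (80 genes), and 7.12% of the 267 downregulated genes (19 genes). Base composition differs between these sets, with a median G and C content of 59.3% in windows of genes tested, 56.3% in those of upregulated and 60.7% in those of downregulated genes, and the letters are more frequent in windows poor in G and C. In windows of 50% G and C or more, they stood in 11.8% for upregulated genes, 4.11% for downregulated genes and 4.81% for genes tested. In windows below 50% the shares were 15.1%, 11.3% and 11%. A match is a description of sequence, and binding was not measured.

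Genes of the extracellular matrix were mostly downregulated where they were called. Of 44 genes for elastic fibres, small proteoglycans and matricellular proteins that were tested, 15 fell, 6 rose and 23 did not pass, with a median of -0.36 against 0.03 over all genes, and 10 to 13 fell with single arrays left out. Fibulins were among those that fell, Fbln5 with levels of 2.79 and 2.95 on the unstimulated arrays and 0.30 and 0.76 on the 24 h arrays (-2.34 ± 0.18, 0.00283) and Efemp1, fibulin 3, with levels of 4.30 and 4.48 on the unstimulated arrays and 2.21 and 2.03 on the 24 h arrays (-2.27 ± 0.13, 0.00133). Other elastic fibre genes that fell were the microfibril gene Fbn1 (-1.28), Loxl1 (-1.21) and Lox (-1.4), which encode enzymes that cross-link elastin and collagen. Lox was not called without the first 24 h array (adjusted p = 0.0523). Small proteoglycans fell with Ogn and Omd above, Aspn being at least 7.13-fold lower (0.00721). Decorin was an exception, since Dcn had levels of -3.27 and -2.50 on the unstimulated arrays and -0.96 and -0.65 on the 24 h arrays (2.08 ± 0.30, 0.0137), and was not called without the first 24 h or the second 24 h array (adjusted p from 0.0515 to 0.0690). Matricellular genes went both ways. Spp1, which encodes osteopontin, had levels of 2.55 and 3.36 on the unstimulated arrays and 6.24 and 6.52 on the 24 h arrays (3.43 ± 0.29, 0.00350), a 10.8-fold increase. Tnc, tenascin C, had levels of -0.80 and 0.02 on the unstimulated arrays and 2.07 and 2.93 on the 24 h arrays (2.89 ± 0.44, 0.0155) and was not called without the first unstimulated array or the second 24 h array. Thbs1, thrombospondin 1, had levels of 5.8 and 6.32 on the unstimulated arrays and 3.68 and 4.69 on the 24 h arrays (-1.87 ± 0.37, 0.0294), and was called only without the second 24 h array among the 4 arrays left out (adjusted p from 0.0684 to 0.133 otherwise). The CCN genes Ctgf (-1.81 ± 0.48, 0.0628) and Cyr61 (-1.33 ± 0.43, 0.0995) did not pass, and the 24 h levels of Ctgf, 2.68 and 4.14, lay far apart. Upregulated matricellular and proteoglycan genes numbered 6, but 2 without the second 24 h array and 3 without the first unstimulated array.

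Of 27 collagen genes tested, 4 fell, 2 rose and 21 did not pass, with a median of -0.22. Called collagens made up 22.2%, against 6.32% of all genes tested. Col1a2, a chain of type I collagen, had levels of 7.63 and 7.58 on the unstimulated arrays and 6.24 and 6.08 on the 24 h arrays (-1.44 ± 0.20, 0.0117) and was called in 0 of the 4 fits with an array left out (adjusted p from 0.0510 to 0.0656). Col11a1 fell by 1.43 (0.0466) and was called only without the second 24 h array among the 4 arrays left out (adjusted p from 0.0855 to 0.188 otherwise). The 4 collagens that fell became 0 without the second unstimulated array and 1 without the first 24 h array. Col17a1, a transmembrane collagen of hemidesmosomes, was not well above background in unstimulated cells and rose at least 7.19-fold (0.000715), to -2.16 and -2.49. The log2 of the summed signal of the 10 fibroblast and mesenchymal markers, which include 3 of these collagen genes, lay between 9.34 and 9.37 on the unstimulated arrays and between 8.75 and 8.77 at 24 h, with Vim at 8.31 and 8.36 on the unstimulated arrays and 8.14 and 8.21 on the 24 h arrays (-0.16 ± 0.12, 0.419). Of the same markers Pdgfra and Dcn were upregulated and Pdgfrb was downregulated, Lum and Fap were well above background on 0 arrays, and the part of these markers in the matrix result was not tested.

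Contractile genes were downregulated where they were called. Of 48 actin cytoskeleton genes tested, 8 were downregulated, 0 upregulated and 40 did not pass, with a median of -0.29, and 36 of 48 lower. Cnn1, the smooth muscle calponin, had levels of -1.10 and -0.87 on the unstimulated arrays and -3.95 and -4.02 on the 24 h arrays (-3.0 ± 0.25, 0.00352), an 8.0-fold decrease. Acta2, smooth muscle actin, had levels of 3.88 and 4.61 on the unstimulated arrays and 1.42 and 2.55 on the 24 h arrays (-2.26 ± 0.45, 0.0314), and Myl9, a regulatory myosin light chain, had levels of 1.34 and 2.0 on the unstimulated arrays and -0.98 and 0.01 on the 24 h arrays (-2.15 ± 0.40, 0.0262). Replicates of Acta2 and Myl9 lay further apart than those of Cnn1. Acta2 was called only without the second 24 h array among the 4 arrays left out (adjusted p from 0.0723 to 0.137 otherwise), and Myl9 was called only without the second 24 h array among the 4 arrays left out (adjusted p from 0.0640 to 0.120 otherwise). Counts of 8 became 4 without either unstimulated array, 5 without the first 24 h array and 9 without the second. Further members that fell were Rnd3 (-1.49), Ankrd1 (-1.51), Nexn (-1.29), Cnn2 (-1.10) and Tagln (-1.0). Of these Ankrd1 was not called without the first unstimulated or the second unstimulated array (adjusted p from 0.113 to 0.114), and Tagln was called only without the second 24 h array among the 4 arrays left out (adjusted p from 0.0941 to 0.145 otherwise).

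The CArG box, the site of serum response factor, is found in promoters of contractile genes and of immediate early genes alike. It was searched on both strands of the same windows, and its letters cannot overlap with TGANTCA. Of the 6 downregulated contractile genes with a window 3 held it (Cnn2, Myl9 and Rnd3), as did 2 of the 6 upregulated immediate early genes with a window (Egr2 and Zfp36) and the ERK phosphatase gene Dusp5. Over the whole lists, called or not, 7 of 40 contractile genes with a window held it (17.5%). So did 3 of 23 immediate early genes (13%) and 1 of 22 ERK feedback genes (4.55%). These include Acta1, Actg1, Myl6, Vcl and Srf, which were not called. Over all genes with a window 1.81% held it, over the upregulated ones outside the interferon list 1.47% and over the downregulated ones 3.75%. The windows of Dusp5, which rose (chr19:53528895-53529194, plus strand, 2 matches), and of Myl9, which fell (chr2:156775214-156775513, plus strand, 1 match), are printed with the matches in capitals to show that the box occurs in genes that moved in opposite directions.
Dusp5: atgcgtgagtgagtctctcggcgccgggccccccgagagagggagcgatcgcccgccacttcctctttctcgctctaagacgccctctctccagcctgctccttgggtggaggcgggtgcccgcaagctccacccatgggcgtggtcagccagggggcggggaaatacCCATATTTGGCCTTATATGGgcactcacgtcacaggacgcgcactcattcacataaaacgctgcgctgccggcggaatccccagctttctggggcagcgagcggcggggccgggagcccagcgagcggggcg
Myl9: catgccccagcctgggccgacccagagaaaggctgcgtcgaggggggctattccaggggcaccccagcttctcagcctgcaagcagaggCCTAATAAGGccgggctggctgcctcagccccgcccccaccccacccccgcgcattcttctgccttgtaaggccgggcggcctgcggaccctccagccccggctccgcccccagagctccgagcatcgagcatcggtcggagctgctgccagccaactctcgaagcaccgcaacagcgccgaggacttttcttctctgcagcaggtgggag

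Adhesion genes were called in both directions. Of 36 genes for cadherins, tight junctions and desmosomes, 3 rose, 3 fell and 30 did not pass. Besides Cdh3, the plakophilins of desmosomes fell, Pkp1 with levels of -0.41 and -0.21 on the unstimulated arrays and -2.18 and -2.19 on the 24 h arrays (-1.88 ± 0.12, 0.00193) and Pkp2 at least 2.01-fold, from -3.29 and -3.44 to not well above background (0.00105). Cdh5, the endothelial cadherin, was well above background on 1 unstimulated array and rose at least 14.6-fold (0.00251), to -0.71 and -0.14. Among the 6 endothelial markers Emcn was not well above background on any of the 4 arrays, and the log2 of the summed signal of the markers lay between 4.23 and 4.67 on the unstimulated arrays and between 4.37 and 4.59 at 24 h. Most of that signal is of Kdr, and without it the log2 of the sum, Cdh5 included, lay between -1.29 and -1.13 on the unstimulated arrays and between 0.22 and 0.49 at 24 h. The part of these markers was not tested. Dsg2, a desmosomal cadherin (1.26), also rose, although the count of 3 was 1 under median centring.

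Of 16 EMT transcription factors, 2 rose, 1 fell and 13 did not pass, so that 18.8% of a short list were called, against 6.32% of all genes tested. Snai2, the factor SLUG, had levels of 2.76 and 2.72 on the unstimulated arrays and 1.52 and 1.29 on the 24 h arrays (-1.33 ± 0.13, 0.00486). Sox9 had levels of 1.54 and 1.65 on the unstimulated arrays and 3.23 and 3.14 on the 24 h arrays (1.59 ± 0.11, 0.00235), and Sox4, whose other 2 probes gave 1.31 and 1.33, rose by 1.25 ± 0.11 (0.00413). Under median centring the change of Sox4 was 0.96, under 2-fold. Of 23 keratins and prostate lineage genes, 1 was upregulated, 2 were downregulated and 20 did not pass, and the 2 became 0 without either unstimulated array or the second 24 h array. Krt7 was well above background on 1 of the 24 h arrays, fell at least 2.76-fold (0.0493) and was called only without the first 24 h array among the 4 arrays left out (adjusted p from 0.0711 to 0.190 otherwise), Gata3 fell by 1.27 (0.0204) and was called only without the first 24 h array among the 4 arrays left out (adjusted p from 0.0542 to 0.0849 otherwise), and Krt18 rose at least 1.86-fold (0.0482) and was called only without the second unstimulated array among the 4 arrays left out (adjusted p from 0.0782 to 0.166 otherwise).

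Of 37 genes of the TGF-beta, BMP and activin pathway, 4 fell, 2 rose and 31 did not pass, and 1 rose without the second array of either group. Bmp4 had levels of 2.23 and 2.03 on the unstimulated arrays and -1.21 and -1.14 on the 24 h arrays (-3.31 ± 0.13, 0.000771), and Id2, a target of BMP receptors, had levels of 1.32 and 1.45 on the unstimulated arrays and -0.73 and -0.73 on the 24 h arrays (-2.12 ± 0.14, 0.00216). Smad6, an inhibitor of BMP signalling that is induced by it, fell at least 3.82-fold (0.0252), was well above background on 1 of the 24 h arrays, and was not called without the first unstimulated or the second unstimulated array (adjusted p from 0.104 to 0.107). The TGF-beta ligands diverged, Tgfb1 with levels of -0.21 and 0.01 on the unstimulated arrays and 1.34 and 1.52 on the 24 h arrays (1.53 ± 0.14, 0.00402) and Tgfb2 with levels of -0.73 and -0.93 on the unstimulated arrays and -2.74 and -2.44 on the 24 h arrays (-1.76 ± 0.15, 0.00360). Of 32 WNT and Notch genes, 2 rose, 3 fell and 27 did not pass, with 1 upregulated without the first unstimulated array and 1 downregulated without the second. The Notch ligand Jag1 had levels of -2.58 and -2.62 on the unstimulated arrays and 0.81 and 0.88 on the 24 h arrays (3.45 ± 0.15, 0.00104), a 10.9-fold increase. The WNT receptor Fzd1 fell by 1.32 (0.00488), and Wnt10a was at least 3.0-fold lower (0.0159) and was not called without the first unstimulated or the second unstimulated array (adjusted p from 0.0752 to 0.0829). Among 29 guidance genes 1 was called, Slitrk6 given above.

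**Figure D5:**
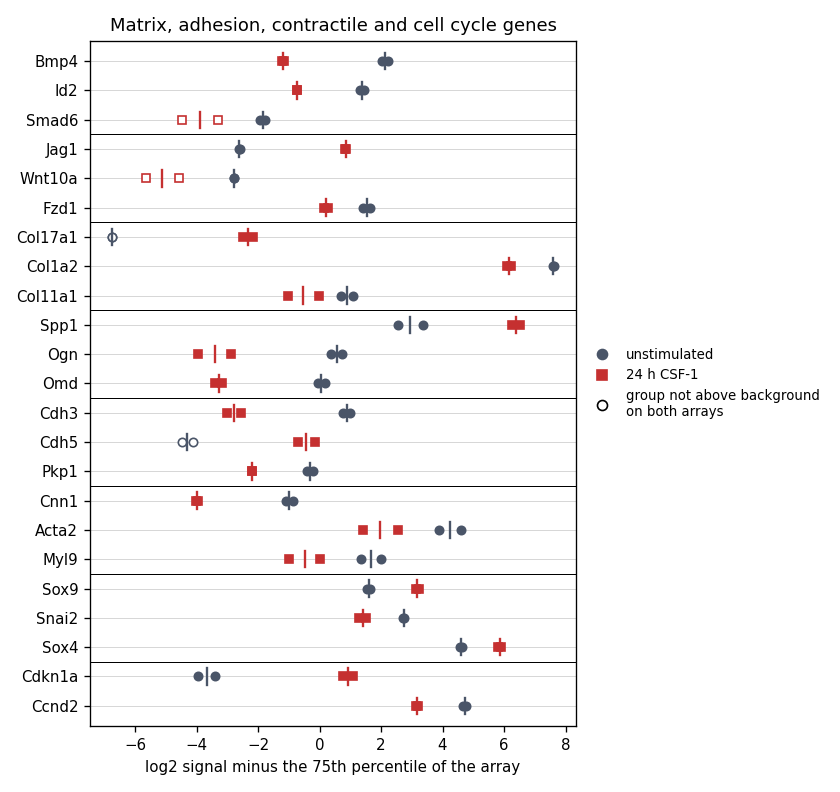
Levels on each array (x axis, log2 signal relative to the array's 75th percentile) of up to 3 called genes with the largest change from each of 8 lists, divided by lines: TGF-beta and BMP, WNT and Notch, collagens, other matrix genes, junctions, contractile genes, EMT factors and cell cycle regulators. Red squares (24 h) lie to the left of gray circles (unstimulated) in all 3 contractile genes, and on opposite sides for Cdkn1a and Ccnd2.

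All 39 DNA replication and nucleotide synthesis genes tested were lower at 24 h, with a median of -0.43 against 0.03 over all genes, and 38 of 43 mitosis genes were lower, with a median of -0.29, where 11161 of the 24232 genes tested were lower. A nearly uniform direction was not particular to these 2 lists. Ribosomal protein genes (65 of 68, median -0.12) and oxidative phosphorylation genes (61 of 67, median -0.17) were also mostly lower, by less. Of the replication and mitosis genes 1 was called, the thymidine kinase gene Tk1, with levels of 5.95 and 5.83 on the unstimulated arrays and 4.77 and 4.87 on the 24 h arrays (-1.07 ± 0.12, 0.00650). In the replication list the count was 2 without the first unstimulated array, 4 under median centring, and 0 under quantile normalization with or without normexp, and in the mitosis list it was 3 under median centring. The median of the replication list lay between -0.71 (median centring) and -0.31 (without the first 24 h array) over the alternatives. That of the mitosis list lay between -0.57 and -0.16 under the same settings. Cdkn1a, which encodes the CDK inhibitor p21, had levels of -3.95 and -3.38 on the unstimulated arrays and 0.75 and 1.09 on the 24 h arrays (4.59 ± 0.23, 0.00115), by the brightest of its 3 probes. The only other probe of Cdkn1a that was tested gave 1.23 (0.0116), so the size of the increase differed between probes. Ccnd2, cyclin D2, had levels of 4.76 and 4.67 on the unstimulated arrays and 3.13 and 3.19 on the 24 h arrays (-1.56 ± 0.14, 0.00374). Both genes had groups far apart, and they were the only 2 called of 25 cyclin D, CDK inhibitor and E2F genes. The related gene Ccnd1 had levels of 5.28 and 5.26 on the unstimulated arrays and 4.60 and 4.43 on the 24 h arrays (-0.76 ± 0.14, 0.0267), under 2-fold. Of 41 p53 targets and apoptosis genes, 3 rose, 3 fell and 35 did not pass. The caspase genes Casp4 (-0.71 and -0.59 on the unstimulated arrays and 2.57 and 2.69 on the 24 h arrays; 3.28 ± 0.23, 0.00235) and Casp6 (2.26 ± 0.11, 0.00115) rose. Plk2, a p53-responsive kinase, had levels of 2.53 and 2.13 on the unstimulated arrays and -0.99 and -0.82 on the 24 h arrays (-3.23 ± 0.20, 0.00163), a 9.41-fold decrease.

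Of 37 glycolysis and hypoxia-responsive genes 6 rose and 0 fell, but 2 without the first unstimulated array, 3 without the second, 3 without the second 24 h array and 2 under median centring. Ndrg1, a stress-induced gene, had levels of 2.05 and 2.14 on the unstimulated arrays and 5.02 and 5.52 on the 24 h arrays (3.18 ± 0.38, 0.00836) and was not called without the second unstimulated array (adjusted p = 0.0527). Car9, a carbonic anhydrase induced in hypoxia, rose at least 2.39-fold (0.00703), and Bnip3 rose by 1.25 ± 0.21 (0.0190) and was called only without the first 24 h array among the 4 arrays left out (adjusted p from 0.0754 to 0.0974 otherwise). Cholesterol and fatty acid genes included 2 upregulated among 43 (4.65%, the share over all genes tested), but 1 without the first 24 h array and 0 without the second, the cholesterol exporter Abca1 (at least 4.99-fold, 0.0358) and Srebf1 (1.06 ± 0.13, 0.00873). Abca1 was not called without the first 24 h or the second 24 h array (adjusted p from 0.106 to 0.139), and Srebf1 was not called without the second 24 h array (adjusted p = 0.0530). Of 25 retinoid and aldehyde genes, 2 fell, the pair of dehydrogenases above, and 2 rose, Cyp26b1, which degrades retinoic acid (1.98 ± 0.38, 0.0284), and Rdh10, which makes retinaldehyde (1.79 ± 0.27, 0.0152). Cyp26b1 was called in 0 of the 4 fits with an array left out (adjusted p from 0.0718 to 0.125), and Rdh10 was called only without the second unstimulated array among the 4 arrays left out (adjusted p from 0.0575 to 0.0742 otherwise). The count of 2 that rose was 0 without the first unstimulated array or the second 24 h array and 1 without either other array.

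Of 46 genes of glutathione and xenobiotic metabolism, 4 fell and 2 rose, but 1 fell without either unstimulated array and 2 without the second 24 h array, and 0 rose without the second unstimulated array and 1 without either first array. Cyp1b1, a cytochrome P450 induced by the aryl hydrocarbon receptor, had levels of -0.24 and 0.02 on the unstimulated arrays and -2.17 and -2.01 on the 24 h arrays (-1.98 ± 0.20, 0.00562). Ces1g, a carboxylesterase with near-identical copies, was at least 7.78-fold lower (0.0167), not well above background at 24 h, and was not called without the first unstimulated or the second unstimulated array (adjusted p from 0.0748 to 0.0910). Mgst1, a microsomal glutathione transferase, rose by 1.37 ± 0.16 (0.00820) and was not called without the second unstimulated array (adjusted p = 0.0505). Of 48 genes of the unfolded protein and amino acid stress response, 3 rose and 2 fell, but 0 rose without the first unstimulated array or the second 24 h array. Nupr1 (1.77 ± 0.28, 0.0164) and Trib3 (1.20 ± 0.16, 0.0113), which are stress-induced regulators, rose, while the serine synthesis genes Psat1 (6.49 and 6.35 on the unstimulated arrays and 5.13 and 5.32 on the 24 h arrays; -1.20 ± 0.13, 0.00598) and Phgdh (-1.07) fell. Phgdh was not called without the first unstimulated array (adjusted p = 0.0350, with a change under 2-fold where this is below 0.05). Nupr1 was not called without the first unstimulated or the second 24 h array (adjusted p from 0.0614 to 0.0764), and Trib3 was called only without the first 24 h array among the 4 arrays left out (adjusted p from 0.0542 to 0.0620 otherwise). Oxidative phosphorylation genes had a median of -0.17 with 61 of 67 lower, and ribosomal protein genes one of -0.12 with 65 of 68 lower, and 0 of either list were called.

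Of the 14 myeloid markers 8 were bright enough to be tested, and 1 was called, the mannose receptor gene Mrc1, with levels of -2.74 and -2.84 on the unstimulated arrays and 1.4 and 1.57 on the 24 h arrays (4.27 ± 0.12, 0.000621), a 19.4-fold increase. Spi1 and Lyz2 stayed not well above background on all 4 arrays. The summed signal of the 14 markers is carried almost wholly by Itgam and Csf1r, and its log2 lay between 6.18 and 6.19 on the unstimulated arrays and between 6.13 and 6.16 at 24 h. Without these genes the log2 of the sum of the other 12, Mrc1 included, lay between -0.49 and -0.40 on the unstimulated arrays and between 1.85 and 1.88 at 24 h.

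The 24 h arrays were also compared with those at 48 h for the 86 genes named by rule. By limma 0 of them differed after adjustment, and 0 of all genes tested did so with a change of at least 2-fold. At any fold, 3389 of all genes tested had an unadjusted p-value under 0.05, a threshold that some unchanged genes also pass. With 2 arrays at each time, the absence of calls does not show that the 2 times were alike. After either normexp correction 16 of the named genes differed, and 12 did with an intensity trend in the prior spread. The log2 difference at 48 h from 24 h was -4.70 for Saa2 (adjusted p = 0.109), -3.02 for Saa3 (0.132) and 2.36 for Stfa2l1 (0.129).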

How the data were processed

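RNA of N18-Fms cells was hybridized to Agilent 60K mouse arrays in 1 color. The deposited scanner files hold signal intensity per spot, background-subtracted by the authors with Feature Extraction 11.0.1 as named in the submitters' processing notes. The deposited value table holds log2 values of the same arrays, which were used as an alternative. From the intensity values, the log2 of the processed signal minus the 75th percentile of each array over spots other than controls was taken, leaving out outlier spots, averaging spots of a probe and keeping the brightest probe of a gene. Differences were tested with limma 3.58.1 in R 4.3.3 on all 6 arrays, after a test on simulated data, with Benjamini-Hochberg adjustment over the 24232 genes. Gene symbols come from the array design, and 15411 tested genes matched a RefSeq gene.

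The comparison and the gene lists were chosen with earlier results of these data known. Genes named by rule were Csf1r, Csf1 and Spp1, the 8 largest called changes in each direction among genes that matched a RefSeq symbol, outside the interferon list, measured or by the limit, and up to 3 called genes with the largest change from each further list. The called genes among these also had to have both 24 h arrays beyond both unstimulated arrays, as all called genes did. Other genes were chosen after their values were seen. Where separate cultures are not given by the labels, p-values measure the spread between arrays only. The number of arrays limits the precision. Some genes of the lists are counted but not reported by name here.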

Additional observations from a re-analysis of the deposited data

How the results depend on the processing

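Over the alternatives, from 576 (normexp background correction with quantile normalization) to 1132 (the authors' log2 values) genes were upregulated at the same thresholds, against 1127, and from 256 (normexp with quantile normalization) to 966 (median centring) downregulated, against 405. Normexp with the 75th percentile shift gave 580 upregulated genes, and requiring all 4 arrays well above background gave 701. Some folds written as at least were under 2-fold after that normexp correction, with log2 changes of 0.84 for Zfp36, 0.39 for Car9 and -0.745 for Wnt10a. With the fold threshold dropped, 2069 and 1576 genes passed. The t-test of the methods gave 974 upregulated and 360 downregulated genes at an unadjusted p-value and 0 and 0 after Benjamini-Hochberg adjustment. With a single array left out, upregulated genes ranged from 688 to 1108 and downregulated genes from 257 to 399, the lowest counts being those without the second 24 h array and without the second unstimulated array. Of the 86 genes named by rule, 56 were called in all 4 fits with an array left out, and Csf1r, which was not called, changed sign to -0.061 (0.838) under median centring. Samples with the same replicate number had deviations correlated at 0.125 (unstimulated and 24 h), 0.098 and 0.172, which was not taken as pairing. With a replicate block 1130 genes were upregulated, of which 1068 were shared, and 404 downregulated, of which 389 were shared. With the slide as a random block the counts were 1115 and 406. The slide as a fixed block amounts to leaving out the first 24 h array, which is alone on its slide. In the comparison of 48 h with 24 h, 16 named genes differed after normexp with either scaling and 12 with an intensity trend, against 0. The cause of these differences was not tested. Signal over background limits the downregulated genes less than the upregulated ones, of which 439 were not well above background on both unstimulated arrays.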
